A study of Mus musculus with 12 samples.

Results

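The 10 genes described here, Lyz2, C1qa, C1qb, C1qc, Mpeg1, Fcgr3, Csf1r, Timd4, Cd68 and Fcer1g, encode complement, lysozyme, Fc receptor and other macrophage proteins. They were picked by name as a view of cells other than T cells in sorted CD8 T cell pools, and they are 10 of 48709 genes listed and of 17833 tested in each of 3 deposited comparisons. The choice was made with their fold changes against isotype known, so those fold changes are given as a description, and nothing is supported with them.

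The pools came from wild-type C57BL/6 mice of postnatal day 91 that carried TRAMP-C2, a transplantable mouse prostate tumour line. Live CD45+CD3+CD8+ cells positive for Spas-1, a TRAMP-C2 tumour antigen, and negative for Spas-2 were sorted from draining lymph nodes on day 28, which the sample labels count from treatment and the series text from the tumour's injection. There were 4 arms: an isotype control, anti-CTLA-4 alone, the antibody anti-PD-1 DANA alone (DANA is an Fc mutation that removes Fc receptor binding), and both antibodies together, called the combination here. Dosing fell on days 3 and 6 and then on day 9 (sample labels) or day 8 (series text). In each arm the cells of 5 mice were combined and divided into 3 libraries, 12 in all, each made from 0.25 ng of RNA with 21 cycles of amplification. The 3 libraries of an arm are therefore technical splits of 1 pool, p-values measure only the spread between such splits, and arm and pool cannot be told apart.

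Macrophages are tissue phagocytes that grow and survive through the receptor encoded by Csf1r. In lymph nodes they line the sinuses and clear dying lymphocytes, which they recognise by exposed phosphatidylserine through receptors such as TIM-4, the product of Timd4. They make the 3 chains of C1q, the first component of the classical complement pathway, and they carry Fc receptors that bind antibody-coated targets. Lysozyme, perforin-2 and CD68 serve in their granules, phagosomes and lysosomes.

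The C1qa, C1qc and C1qb genes lie side by side on chromosome 4 within 18675 bases. The promoters of C1qb and C1qc are shown because these neighbours both had high means after anti-CTLA-4 while C1qa did not. The C1qb mean there came almost wholly from 1 library, with 0, 2 and 698 reads in the 3 libraries. The Cd68 promoter is shown as that of another gene detected in both single-antibody arms, though in only 1 library after anti-CTLA-4. Sequences are from RefSeq (GRCm38.p6), 5′ to 3′ on the gene's strand, and end at the RefSeq start site or at the first annotated exon base. Capitals mark GAGGAA or its reverse complement TTCCTC, a form of the PU box bound by the myeloid factor PU.1.
C1qb: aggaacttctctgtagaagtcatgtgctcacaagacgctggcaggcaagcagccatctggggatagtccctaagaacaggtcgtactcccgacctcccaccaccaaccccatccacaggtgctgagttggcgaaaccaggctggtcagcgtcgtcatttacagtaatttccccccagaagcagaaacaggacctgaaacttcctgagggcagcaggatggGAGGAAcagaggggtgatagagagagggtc
C1qc: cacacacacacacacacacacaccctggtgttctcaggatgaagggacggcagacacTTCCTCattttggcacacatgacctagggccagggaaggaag
Cd68: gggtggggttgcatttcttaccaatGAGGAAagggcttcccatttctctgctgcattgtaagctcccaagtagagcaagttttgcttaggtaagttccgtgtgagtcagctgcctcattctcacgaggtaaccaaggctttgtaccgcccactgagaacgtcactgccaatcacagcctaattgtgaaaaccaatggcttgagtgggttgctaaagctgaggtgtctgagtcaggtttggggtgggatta
The stretches are chr4:136886201-136886450, chr4:136893066-136893164 and chr11:69666171-69666420, all on the minus strand. Within 250 bases before the start site, 1 of these forms was found in 4 of the 8 genes with a promoter entry (C1qb, C1qc, Fcgr3 and Cd68) and in 7639 of all 32851 promoters (23.3%). Lyz2, Mpeg1, Timd4 and Fcer1g had no match in that window. C1qa and Csf1r had no promoter entry. A match is a description of letters and not of binding.

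Lyz2 has a neighbouring paralogue, Lyz1, on the same strand of chromosome 10, and 50 bases before both genes are shown because Lyz2 was called lower and Lyz1 higher in the combination. Capitals mark the bases that differ, and 42 of the 50 are identical.
Lyz2: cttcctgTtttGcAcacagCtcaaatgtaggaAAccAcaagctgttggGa
Lyz1: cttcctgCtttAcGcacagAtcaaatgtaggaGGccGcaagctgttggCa
These are chr10:117282322-117282371 for Lyz2 and chr10:117292918-117292967 for Lyz1. Of the 50-base windows of the longest Lyz2 transcript, 15.4% also occur in Lyz1, so a part of their reads could be divided between them by the counting. For Fcgr3 the share was 12.8%, all of it with Fcgr2b. For the other 8 genes it was 0%.

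The library sizes recovered from the deposited means ran from 23973359 to 32867235 reads in isotype, 14729713 to 29583827 after anti-CTLA-4, 24233466 to 31943900 after anti-PD-1 DANA and 24594651 to 42556869 in the combination. The sorted identity was visible in every arm: all 12 genes of a CD8 T cell list were detected, with a summed level of 2150 to 3017 RPKM (reads scaled to exon length in kilobases and to library size), and Cd3d, Cd8b1 and Cd3g stood at 333.9, 422.2 and 381.7 RPKM after anti-CTLA-4. B cell genes were abundant too, at 319.1 to 1026 RPKM summed over 12 genes, highest after anti-CTLA-4. Cd74, the invariant chain of MHC class II, alone stood at 156.8 RPKM in isotype, and the immunoglobulin genes Ighm and Igkc at 133.9 and 90.2. The part of B cells in the results below was not tested. Of 25 further macrophage identity genes in the files, 20 were above 0 in at least 1 comparison, some of them with at most 3 reads in any arm. The other 5 were at 0 in every table, among them Adgre1 (F4/80), Cd14 and Vsig4, which define many tissue macrophages. The list summed to 17.7 to 57.7 RPKM. Apoe, the lipid carrier apolipoprotein E that macrophages secrete, gave most of that in each arm, at 38.8 RPKM in isotype and at implied means of 35.3 after anti-CTLA-4, 13.1 after anti-PD-1 DANA and 19.3 in the combination. The summed level of the 10 genes was 74.4 RPKM in isotype, 108.4 after anti-CTLA-4, 81.6 after anti-PD-1 DANA and 4.71 in the combination, and Lyz2 gave most of it in each arm. On the scale of the authors' fold changes, with isotype kept at 74.4, the treated sums became 56.0, 46.1 and 4.36, so that the order of isotype and the single-antibody arms turned with the scaling.

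The tables give, for each gene and comparison, the larger group mean in RPKM and the authors' fold change, and no value per library. Because the means are sums of whole reads, the reads in each of the 3 libraries could be solved for. They are written here in the order smallest, middle and largest library of the arm, which cannot be tied to the replicate numbers. The mean of an arm that was lower in its table was implied from the fold change, with the 5th to 95th percentile of the scaling as its range, and it has no value per library. In bulk RNA, fewer cells of a type and less RNA per cell cannot be told apart.

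**Figure D1:**
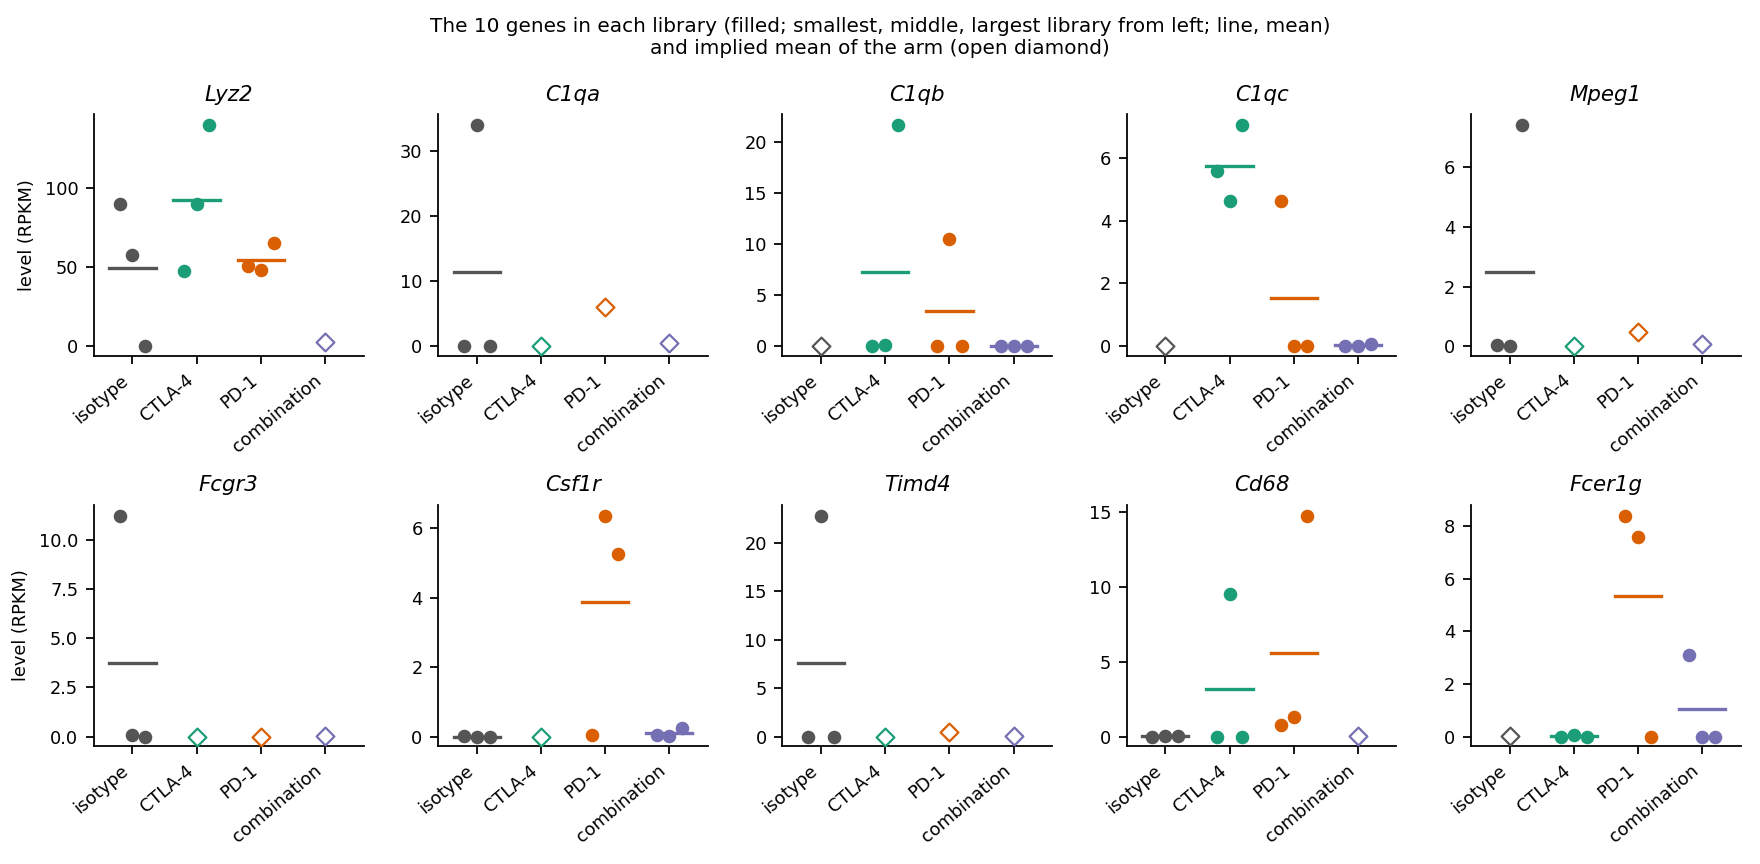
Level in RPKM of each of the 10 genes by arm. Filled points are the 3 libraries of an arm (smallest, middle and largest from left), lines are arm means, and open diamonds are means implied from the authors' fold change. Within an arm, 1 library often holds nearly the whole mean, as for C1qa in isotype (34.0 RPKM against 0.040 and 0.029).

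C1q takes 3 chains. The genes of all 3 had means above 1 RPKM after anti-PD-1 DANA, C1qb and C1qc alone did after anti-CTLA-4, and C1qa alone did in isotype. C1qa (chromosome 4, 136895917 to 136898803, GRCm38) had 1, 867 and 1 reads in the isotype libraries, or 0.040, 34.0 and 0.029 RPKM (mean 11.4 ± 19.6, SD, n = 3). The middle library was high and the other 2 held 1 read each. Implied means were 0.027 RPKM after anti-CTLA-4, which is under 3 reads, 6.10 after anti-PD-1 DANA (5.41 to 6.52) and 0.576 in the combination (0.511 to 0.621).

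C1qb (chromosome 4, 136880129 to 136886187) had 0, 2 and 698 reads after anti-CTLA-4, with 21.7 RPKM in the largest library (mean 7.26 ± 12.5, SD, n = 3). After anti-PD-1 DANA it had 0, 306 and 0 reads, with 10.5 RPKM in the middle library (mean 3.50 ± 6.07, SD, n = 3). In the combination there were 0, 0 and 2 reads. Each single-antibody arm therefore had 1 high library and 2 with at most 2 reads, so that arms overlapped, and the isotype mean was implied at under 3 reads.

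C1qc (chromosome 4, 136889804 to 136893065) had 159, 170 and 402 reads after anti-CTLA-4, or 5.59, 4.61 and 7.04 RPKM (mean 5.75 ± 1.22, SD, n = 3). After anti-PD-1 DANA it had 217, 0 and 0 reads, or 4.64 RPKM in the smallest library. In the combination it had 0, 1 and 7 reads. All 3 anti-CTLA-4 libraries held C1qc, but the ranges of the anti-CTLA-4 and anti-PD-1 DANA libraries overlapped narrowly, at 4.61 against 4.64 RPKM. In no anti-PD-1 DANA library were C1qb and C1qc both detected, since C1qb was in the middle and C1qc in the smallest.

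In the authors' deposited table of anti-CTLA-4 against isotype, the log2 fold change was -9.69 ± 2.42 for C1qa (adjusted p = 0.0120), where the error is the standard error implied by the p-value. In the authors' deposited table C1qb had 9.92 ± 3.33 (adjusted p = 0.106) and C1qc 10.33 ± 3.16 (adjusted p = 0.0597) in that comparison. For anti-PD-1 DANA the authors' deposited table has -1.72 ± 2.12 for C1qa, 8.89 ± 3.33 for C1qb and 8.55 ± 3.16 for C1qc, none called (adjusted p = 0.182 for C1qb and 0.172 for C1qc). In the combination the authors' deposited table gives -4.41 ± 2.13, 2.08 ± 3.49 and 3.89 ± 3.21 in the same order, none called. Where an arm is near 0 reads, these log2 values depend on the authors' fit and are no bound.

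Lysozyme M, which cuts bacterial cell walls, is encoded by Lyz2 (chromosome 10, 117277334 to 117282274). It was the most abundant of the 10 genes in each arm. Isotype libraries held 2725, 1775 and 16 reads, or 89.8, 57.2 and 0.385 RPKM (mean 49.1 ± 45.2, SD, n = 3). After anti-CTLA-4 there were 879, 2173 and 5216 reads, or 47.1, 89.9 and 139.3 RPKM (mean 92.1 ± 46.1, SD, n = 3). After anti-PD-1 DANA there were 1546, 1633 and 2643 reads, or 50.4, 48.2 and 65.4 RPKM (mean 54.6 ± 9.34, SD, n = 3).

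Thus 8 of the 9 solved Lyz2 libraries lay between 47.1 and 139.3 RPKM and 1 isotype library stood at 0.385, so isotype overlapped both single-antibody arms. The implied combination mean was 2.77 RPKM (2.45 to 2.98), 17.8 times lower than in isotype and below every solved library but the low isotype one. The authors' deposited table has Lyz2 at -4.26 ± 1.17 in the combination (adjusted p = 0.0169). It has 0.02 ± 1.17 for anti-CTLA-4 and -0.62 ± 1.17 for anti-PD-1 DANA in the authors' deposited table, neither called. By library size the anti-PD-1 DANA value turns to 0.20, on the side of the RPKM means, and the anti-CTLA-4 value becomes 0.97.

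Perforin-2, a pore-forming protein that attacks engulfed bacteria, is encoded by Mpeg1 (chromosome 19, 12460779 to 12465284). Its isotype reads were 4, 1 and 1054, or 0.038, 0.0094 and 7.40 RPKM (mean 2.48 ± 4.26, SD, n = 3). Only the largest library was high. Implied means were under 3 reads after anti-CTLA-4, 0.478 RPKM after anti-PD-1 DANA and 0.079 in the combination. The authors' deposited table has -9.18 ± 2.31 for anti-CTLA-4 (adjusted p = 0.0126), -3.20 ± 2.11 for anti-PD-1 DANA, and the combination has -5.08 ± 2.12 (adjusted p = 0.266).

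CD68, a heavily glycosylated lysosomal membrane protein, is encoded by Cd68 (chromosome 11, 69664213 to 69666153). After anti-CTLA-4 there were 0, 229 and 0 reads, or 9.54 RPKM in the middle library. After anti-PD-1 DANA there were 23, 44 and 594 reads, or 0.755, 1.31 and 14.8 RPKM. Isotype libraries held 0, 1 and 3 reads.

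All 3 anti-PD-1 DANA libraries were thus above every isotype library for Cd68, while 2 of the anti-CTLA-4 libraries were at 0. Mean levels were 160.4 times the isotype mean after anti-PD-1 DANA and 90.8 times after anti-CTLA-4, against an isotype mean that rests on 4 reads in total. The authors' deposited table has 6.34 ± 2.26 (adjusted p = 0.145), 5.33 ± 2.26 (adjusted p = 0.310) and, for the combination, -0.45 ± 2.37, none called.

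Fcgr3 (chromosome 1, 171051174 to 171064935) encodes Fc gamma receptor III, which binds immune complexes and signals through the Fc receptor gamma chain, the product of Fcer1g. Its isotype reads were 467, 3 and 0, or 11.2, 0.070 and 0 RPKM (mean 3.76 ± 6.46, SD, n = 3). Only the smallest library was high. Implied means were under 3 reads after either single antibody and 0.021 RPKM in the combination. Fcgr3 was called in all 3 comparisons of the authors' deposited table, at -11.23 ± 3.27, -11.14 ± 3.05 and -7.63 ± 2.25 (adjusted p = 0.0436, 0.0271 and 0.0321), in the order anti-CTLA-4, PD-1 antibody, combination. By library size the anti-CTLA-4 call was lost (-10.27, adjusted p = 0.0568, from the authors' deposited table so rescaled). These 3 comparisons share the isotype libraries and so the 1 high library.

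Fcer1g (chromosome 1, 171229572 to 171234365) lies 164636 bases from Fcgr3, and its level was high in other arms than that of its partner. After anti-PD-1 DANA it had 178, 178 and 0 reads, or 8.40, 7.61 and 0 RPKM (mean 5.34 ± 4.64, SD, n = 3). The combination had 67, 0 and 0 reads and anti-CTLA-4 0, 1 and 0. The anti-PD-1 DANA libraries thus overlapped the others only through the largest, at 0, and the isotype mean was implied at under 3 reads. The authors' deposited table has 7.20 ± 2.49 for anti-PD-1 DANA (adjusted p = 0.126), 5.50 ± 2.49 for the combination and -0.64 ± 2.78 for anti-CTLA-4 (0.31 by library size), where both arms held under 3 reads.

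Csf1r (chromosome 18, 61105572 to 61132149) encodes the receptor for the macrophage growth factor CSF1. After anti-PD-1 DANA it had 5, 831 and 820 reads, or 0.042, 6.35 and 5.25 RPKM (mean 3.88 ± 3.37, SD, n = 3). The combination had 6, 3 and 55 reads, with at most 0.265 RPKM, and isotype 2, 0 and 0 reads. Here 2 anti-PD-1 DANA libraries were high, and the third lay within the range of the combination but above every isotype library.

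Pooled over libraries, Csf1r was 812.1 times more frequent after anti-PD-1 DANA than in isotype, with an exact binomial 95% interval of 224.5 to 6711 that covers counting error of 1656 against 2 reads only. The combination stood at 26.3 times isotype (6.98 to 221.5), from 64 against 2 reads. The authors' deposited table has 8.44 ± 2.10 for anti-PD-1 DANA (adjusted p = 0.0126), 4.04 ± 2.11 for the combination (adjusted p = 0.628) and -1.59 ± 2.47 for anti-CTLA-4, where the implied mean is under 3 reads.

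Timd4 (chromosome 11, 46810800 to 46844332) encodes TIM-4, a phosphatidylserine receptor of resident macrophages. Its isotype reads were 1, 1215 and 0, or 0.019, 22.8 and 0 RPKM (mean 7.61 ± 13.2, SD, n = 3). Only the middle library was high, which was also the library that held C1qa. Implied means were under 3 reads after anti-CTLA-4, 0.446 RPKM after anti-PD-1 DANA and 0.043 in the combination. The authors' deposited table has -12.36 ± 3.24 (adjusted p = 0.0190), -4.92 ± 2.08 (adjusted p = 0.308) and -7.58 ± 2.13 (adjusted p = 0.0212) in that order.

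**Figure D2:**
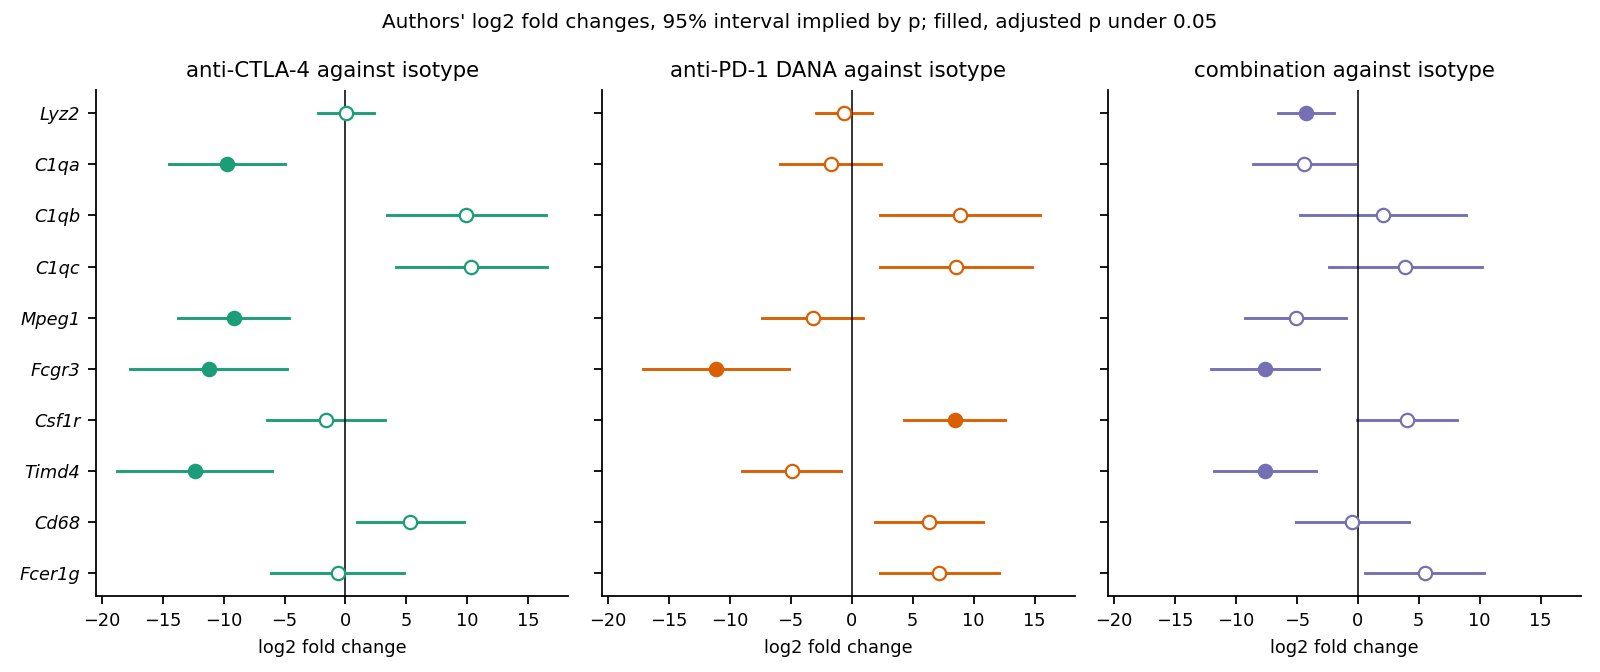
The authors' log2 fold change of each gene (x axis) against isotype in 3 panels, with a 95% interval implied by the p-value. Filled points are called at an adjusted p under 0.05: C1qa, Mpeg1, Fcgr3 and Timd4 after anti-CTLA-4, Fcgr3 and Csf1r after anti-PD-1 DANA, and Lyz2, Fcgr3 and Timd4 in the combination.

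With a call set at an adjusted p under 0.05, the authors' deposited table for anti-CTLA-4 calls 0 of the 10 genes higher (3 at an unadjusted p under 0.05) and 4 lower. Of all tested genes, 4.23% were called there, 2.74% higher and 1.49% lower. For anti-PD-1 DANA the authors' deposited table calls 1 higher, Csf1r, and 1 lower, Fcgr3, beside 3.75% of all tested genes, 2.43% higher and 1.32% lower. For the combination it calls 0 higher (1 at an unadjusted p under 0.05) and 3 lower, beside 7.53% of all tested genes, 3.94% higher and 3.59% lower, in the authors' deposited table. At an unadjusted p under 0.05 stood 7, 7 and 6 of the 10 genes, beside 22.9, 23.1 and 23.2% of all tested genes, in the authors' deposited tables. As the genes were chosen with these values known, nothing is read from the counts. The median log2 fold change of the 10 genes was -1.12, 2.86 and -2.36, beside -0.62, -0.45 and -0.42 over all tested genes. Library size scaling would raise all log2 values by 0.95, 0.82 and 0.11.

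The reads of these genes were unevenly divided within pools. A mean counted as resting on 1 library at a share of 80% or more from that library. The 10 genes had 18 arm means of 1 RPKM or more. The reads of 2 of them, C1qa after anti-PD-1 DANA and Lyz2 in the combination, could not be solved, since these means were only implied. Of the 16 with solved reads, 10 rested on 1 library: 4 of 5 in isotype, 2 of 4 after anti-CTLA-4, 3 of 6 after anti-PD-1 DANA and 1 of 1 in the combination. Over all genes with solved reads and a mean of 1 to 20 RPKM, the share was 78.7% in isotype and 37.9% after anti-CTLA-4. It was 40.5% after anti-PD-1 DANA and 60.5% in the combination. The solved Lyz2 means, at 49.1, 92.1 and 54.6 RPKM in isotype and the single-antibody arms, lie above that range, and none rested on 1 library. Leaving Lyz2 out would raise the shares of the 10 genes in those arms. The counts and this background thus differ in level range, and nothing is read from the 2 together. For the background, reads were solved for 992 of 3394 means of 1 to 20 RPKM in isotype and 2286 of 4528 after anti-CTLA-4. They were solved for 1862 of 4190 after anti-PD-1 DANA and 913 of 2380 in the combination. An isotype mean entered the background only where isotype was the larger group in at least 2 comparisons. A treated mean entered only where it was above isotype, so the background holds means of arms that were high. The 4 isotype means fell on different libraries: Fcgr3 on the smallest, C1qa and Timd4 on the middle and Mpeg1 on the largest. Over 781 isotype means that rested on 1 library, that library was the smallest for 32.3%, the middle for 35.0% and the largest for 32.8%.

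Means spread over more libraries were those of Lyz2 in 3 arms, C1qc after anti-CTLA-4, and Csf1r and Fcer1g after anti-PD-1 DANA. Of the 66 library values behind the solved means of the 10 genes, 20 were 0 reads, which allows up to 3 reads, or 0.019 to 0.233 RPKM. Reads after amplification carry no molecular identifiers, so such limits and intervals cover counting error only. The low input and the amplification apply to all 12 libraries, and their part in this division was not tested.

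**Figure D3:**
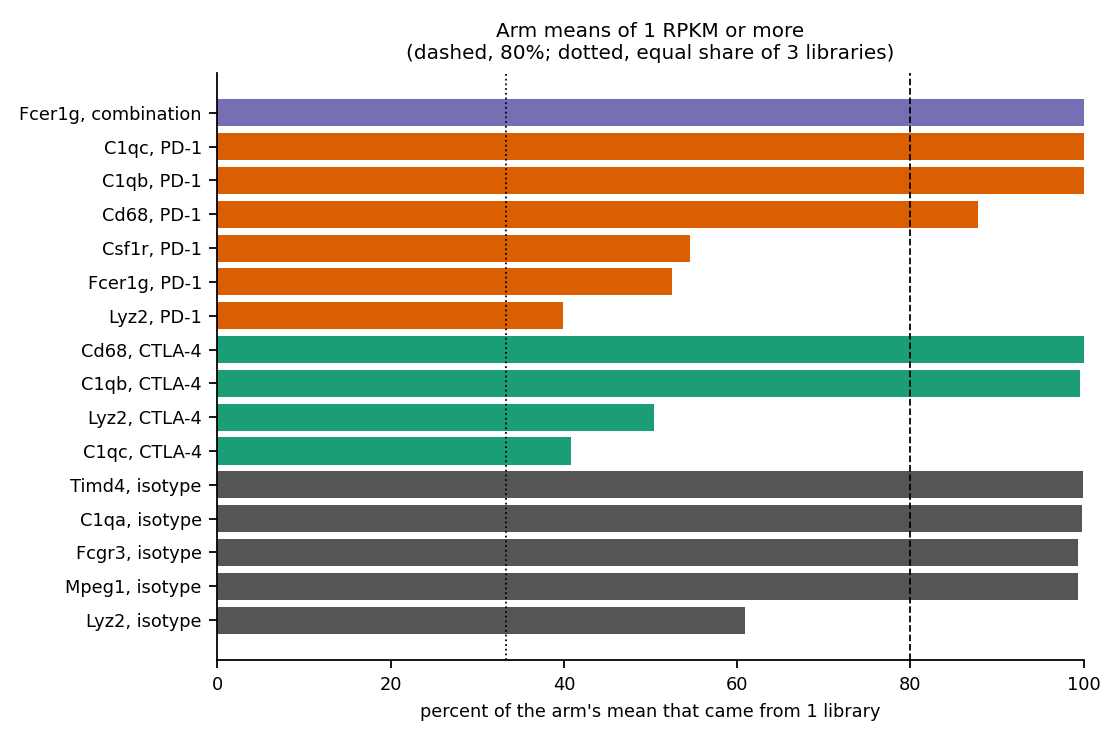
Percent of the arm mean that came from its highest library, for the 16 means of 1 RPKM or more with solved reads among the 10 genes, coloured by arm. The dashed line is 80% and the dotted line an equal share. The bars of C1qa, Timd4, Fcgr3 and Mpeg1 in isotype exceed 99%, while C1qc after anti-CTLA-4 is at 40.8%.

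The treatments were set against each other through the difference of their log2 fold changes, as a description with a 95% interval from an upper bound of the error. The intervals were formed for the 10 genes only and without adjustment. No share over all tested genes stands beside them, so nothing is read from how many left out 0. Csf1r was -10.03 (-16.38 to -3.68) for anti-CTLA-4 minus anti-PD-1 DANA. C1qa was -7.97 (-14.28 to -1.66) and Fcer1g -7.84 (-15.16 to -0.52) for the same pair. Intervals of the other 7 genes in that pair included 0.

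Lyz2 was 4.28 higher on the log2 scale (1.04 to 7.52) after anti-CTLA-4 than in the combination, the 1 gene of 10 whose interval left out 0 for that pair. It was 3.64 higher (0.40 to 6.87) after anti-PD-1 DANA than in the combination, and Cd68 was 6.80 higher (0.38 to 13.22). The other 8 genes of that pair had intervals that included 0, which does not show that the arms are alike.

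Other genes of the same systems were read from 11 further lists. Of all tested genes, 2.74, 2.43 and 3.94% were called higher after anti-CTLA-4, after anti-PD-1 DANA and in the combination. In the same order 1.49, 1.32 and 3.59% were called lower, and 22.9, 23.1 and 23.2% had an unadjusted p under 0.05. The counts of all these lists stand beside those shares, and nothing is read from the counts. Of 20 tested macrophage identity genes, 0 were called higher in any of the 3 comparisons (3, 2 and 1 at an unadjusted p under 0.05) and the same 2 were called lower in each. Axl, a receptor tyrosine kinase of apoptotic cell uptake, had an isotype mean of 6.35 RPKM and log2 fold changes of -9.28, -8.89 and -8.41 by the authors' deposited table (adjusted p = 0.00183, 0.00244 and 0.00197). Its reads per library were not solved, so whether that mean rests on 1 library is not known. Ccl7, a monocyte-attracting chemokine, had 0, 726 and 1 isotype reads, in the library that held C1qa and Timd4. Its values in the authors' deposited table were -11.62, -9.74 and -8.49 (adjusted p = 0.0357, 0.0142 and 0.0175). The 3 comparisons share isotype.

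Among 14 lysosome and protease genes, only Lyz1 was called, and only in the combination. It had 207, 2 and 1790 reads there and 591, 3 and 3 after anti-PD-1 DANA. The authors' deposited table has Lyz1 at 7.78 in the combination (adjusted p = 0.00893), where its paralogue Lyz2 was called lower. Of 9 tested complement genes, 0 were called in any of the 3 comparisons (0, 0 and 2 at an unadjusted p under 0.05), and 9 more, among them the C1q-partner proteases C1ra and C1s1 and the receptor gene C3ar1, were at 0 in every table. Itgb2, the shared chain of leukocyte integrins including complement receptor 3, was the most abundant at 55.9 RPKM in isotype, and T cells express it too. C1qbp, a mitochondrial protein that binds C1q, was implied at 17.8 RPKM.

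Of 12 tested Fc receptor and adaptor genes, 2 were called higher after anti-CTLA-4, 0 after anti-PD-1 DANA (2 at an unadjusted p under 0.05) and 1 in the combination, and 0 were called lower (0, 1 and 0). Fcer2a, the low-affinity IgE receptor of B cells, had 759, 1007 and 211 reads after anti-CTLA-4. It had 182, 28 and 458 after anti-PD-1 DANA and 71, 346 and 11 in the combination. Its values in the authors' deposited table were 7.53, 5.44 and 5.44 in that order (adjusted p = 0.00417, 0.0685 and 0.0467). The anti-PD-1 DANA value was thus not called, though it was as large as that of the combination. The kinase gene Syk, which acts below Fc and B cell receptors, had 133, 385 and 843 reads after anti-CTLA-4 against 4, 4 and 0 in isotype. The authors' deposited table has Syk at 6.57 (adjusted p = 0.0433). In the same comparison 2 of 12 B cell genes were called, both higher: Ms4a1 (CD20) was at 6.03 and Spib at 7.89 by the authors' deposited table (adjusted p = 0.0255 and 0.00212). The list's median was 0.78, and among its other genes Cd74 was at 0.32, Ighm at -0.12, Cd22 at -0.18 and Blnk at -1.35 in the authors' deposited table, none called. The part of B cell genes in the Fc receptor result was not tested. Fcgr1, the high-affinity IgG receptor of macrophages, was at 0 in every table.

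In the list of Csf1r ligands and myeloid factors, 1 of 13 tested genes was called. Csf2rb2, a beta chain of the interleukin-3 receptor, was lower at -7.18 after anti-PD-1 DANA and -7.73 in the combination by the authors' deposited table (adjusted p = 0.0248 and 0.00803). Of its transcript windows, 19.4% occur in another gene, nearly all in Csf2rb, so its counts are uncertain. In the phosphatidylserine uptake list 1 of 12 tested genes was called. Mfge8, a bridge between phosphatidylserine and integrins, stood at 5.24 RPKM after anti-PD-1 DANA and at 8.07 on the log2 scale by the authors' deposited table (adjusted p = 0.00940), the comparison in which Csf1r was called higher.

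Lists of further myeloid cells held both abundant and undetected genes. The monocyte and neutrophil list summed to 182.1 to 261.6 RPKM, above the 10 genes in each arm. Ly6c2, a surface antigen of monocytes that memory CD8 T cells also carry, gave most of it, at 206.8 RPKM in isotype, 178.7 after anti-CTLA-4, 230.2 after anti-PD-1 DANA and 167.1 in the combination. Plac8 stood at 14.8, 20.8, 28.4 and 11.4 RPKM in the same order. In this list 7 of 18 genes, among them S100a8, S100a9 and Mpo, were at 0 in every table. Ccr2 encodes a chemokine receptor of monocytes and of activated T cells. It was called higher at 7.32 after anti-CTLA-4 and 6.65 in the combination by the authors' deposited table (adjusted p = 0.00957 and 0.0142). By the authors' deposited table, Ccr2 was also 5.62 higher after anti-PD-1 DANA but not called (adjusted p = 0.0796). Ccr2 means were 4.92, 1.33 and 1.67 RPKM after anti-CTLA-4, after anti-PD-1 DANA and in the combination, against an implied 0.015 in isotype. The dendritic cell list, with 12 of 16 genes tested, summed to 72.2 to 189.9 RPKM. Ccr7, a homing receptor of dendritic cells and of naive and central memory T cells, gave most of it, at 120.4 RPKM in isotype, 130.3 after anti-CTLA-4, 162.4 after anti-PD-1 DANA and 54.1 in the combination. Siglech, a marker of plasmacytoid dendritic cells, was at 25.0 RPKM in isotype and at implied means of 1.98, 0.951 and 4.96 in the treated arms, and it was not called. Clec9a, Clec10a, Batf3 and Ccl17 were at 0 in every table. Apoe, Ly6c2, Plac8, Ccr7 and Siglech were named after their values were seen. Cd83, an activation marker of dendritic and B cells, was at -9.07 and Cacnb3 at -8.76 after anti-PD-1 DANA by the authors' deposited table (adjusted p = 0.000363 and 0.0449). Ccr9, a gut-homing receptor, was at -3.82 in the combination by the authors' deposited table (adjusted p = 0.00392). Of 10 tested natural killer cell genes, 0 were called in any of the 3 comparisons (2, 3 and 0 at an unadjusted p under 0.05). Its most abundant genes, Il2rb and Cd160, which CD8 T cells also express, stood at 56.3 and 8.37 RPKM in isotype.

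**Figure D4:**
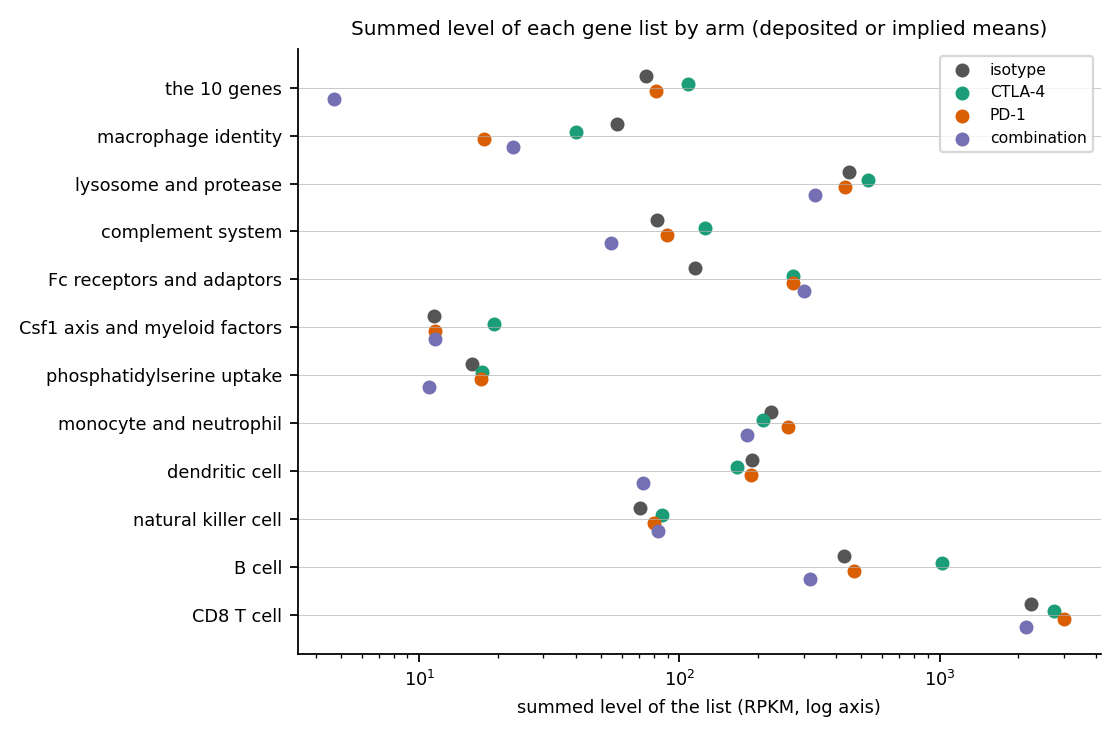
Summed level (RPKM, log axis) of the 10 genes and of 11 other lists in the 4 arms, from deposited or implied means scaled by library size. The 10 genes span 4.71 to 108.4 RPKM and the CD8 T cell list 2150 to 3017.

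Between the arms, the B cell list summed to 430.3 RPKM in isotype, 1026 after anti-CTLA-4, 469.4 after anti-PD-1 DANA and 319.1 in the combination. On the scale of the authors' fold changes the treated sums were 530.3, 265.2 and 295.4, beside 430.3 in isotype. In the B cell list of the authors' deposited table, Blnk was called lower after anti-PD-1 DANA at -7.35 (adjusted p = 0.0105) and in the combination at -8.06 (adjusted p = 0.00233), where Cd22 stood at -6.38 (adjusted p = 0.0123). Of the CD8 T cell list only Lat was called, at -1.45 after anti-CTLA-4 by the authors' deposited table (adjusted p = 0.0246).

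For each of 5 genes called in at least 1 comparison, the 3 genes nearest over the 3 log2 fold changes were found. Candidates were 7847 genes whose larger group mean was at least 1 RPKM in each table. A gene high in isotype passes in all 3 through that mean alone, while a gene high in 1 treated arm only does not pass. Timd4 lay nearest to Gm43291 (distance 0.18 log2 units), Lyz2 to Spg11 (0.18), C1qa to Rhbdd1 (0.53), Fcgr3 to Pklr (0.56) and Mpeg1 to Zfp433 (0.65). Csf1r, the other called gene, is itself below that minimum in the anti-CTLA-4 and combination tables, so genes of its pattern were no candidates and no neighbour is given. Ggnbp1 and D030055H07Rik came next for Timd4, Sh2d3c and Actr5 for Lyz2, and E130208F15Rik and Slc6a12 for Fcgr3. Zfp433 and Gm13684 were among the nearest to both C1qa and Mpeg1, and Gm29439 was near Mpeg1. The distance is over 3 comparisons that share isotype and is a description.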

How the data were processed

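RNA of 12 libraries, 3 per arm, was sequenced after a Smart-seq2-type protocol, and per the labels' protocols CLC Genomics Workbench did alignment and quantification. The build was GRCm38 (patch release p5), per the submitters' processing notes. For the program's version, annotation and test, the sources used here give nothing. The labels state about 48,710 reads per library, far below the depth recovered here, and that number was not used. The authors deposited 3 tables of comparisons with isotype. The larger group mean in the authors' tables is in RPKM, a unit read from the values. The authors deposited log2 fold changes, signed fold changes (ratios), p-values, false discovery rates and Bonferroni p-values. Adjusted p is that false discovery rate, taken over all 48709 listed genes.

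The members and lists were chosen with earlier results of these data known. The planned count models could not be fitted, since the tables hold no value per library. Library sizes and whole reads were recovered from the steps of the RPKM means with exon lengths of GENCODE M21 (99.3% of genes matched), where exactly 1 solution existed and chance allowed at most 0.05 (0.25 for Lyz2 and Csf1r). Where deposited and annotated coordinates differed, as for Lyz2, Mpeg1, Csf1r and Lyz1, exon lengths fitted to the deposited coordinates were tried too. The length with which most means of the gene could be solved was kept. With annotated lengths and chance of at most 0.05, the recovery solved 79.9 to 82.5% of means tried, against 1.67 to 3.50% with lengths off by 1 base. At the same settings it was tested on simulated data. These checks do not cover fitted lengths or the allowance of 0.25, and so not the reads of Lyz2, Csf1r, Mpeg1 and Lyz1. Standard errors were implied by dividing the size of a log2 fold change by the normal quantile of its p. Lower means were implied through the median offset between fold changes and ratios of RPKM means. The smallest of 3 different means was given to isotype or the treated arm by the direction of its own comparison. These steps were chosen after seeing the data.

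Named genes are all 10 members, every called gene of the other lists (otherwise the 2 with the largest mean), and for CD8 T and B cells also the 3 largest. Among the called list genes, no reads per library were solved for Axl, Csf2rb2, Ccr2, Ccr9, Cd83, Cacnb3, Cd22, Blnk and Lat. Nor were they for Mfge8 after anti-PD-1 DANA or for Ms4a1 and Spib after anti-CTLA-4. Whether these means rest on 1 library is not known. Alternatives were adjustment over tested genes, Bonferroni adjustment, library size scaling and larger group means of 5 RPKM or more. Others were removal of genes resting on 1 library, shares of 60 and 95%, 0.01 chance solutions and equal variances. Itgam was not analysed here. Python 3.11.15, pandas 2.3.3, NumPy 2.4.6, SciPy 1.17.1 and matplotlib 3.10.9 were used.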

Additional observations from a re-analysis of the deposited data

How the results depend on the processing

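Each count of called genes among the 10 fell to 0 with Bonferroni adjustment in all 3 comparisons of the authors' deposited tables, against 4, 2 and 3 as deposited (7, 7 and 6 at an unadjusted p under 0.05), in the order anti-CTLA-4, PD-1 antibody, combination. Over all tested genes Bonferroni adjustment called 27, 34 and 74. Without genes resting on 1 library, 0 of 2, 1 of 3 and 1 of 3 members with solved reads were called, Csf1r and Lyz2 being left. Over all such genes with solved reads, 7.4, 4.94 and 5.68% were called. With adjustment over tested genes only, the counts were 6, 3 and 3, beside 9.06, 8.95 and 12.5% of all tested genes (1616, 1596 and 2238 calls against 754, 669 and 1343 as deposited). By library size they were 5, 2 and 3, beside 7.66, 6.90 and 7.61% (1366, 1230 and 1357). With a larger group mean of 5 RPKM or more, 4 of 5, 2 of 5 and 2 of 3 members were called, beside 13.9, 12.9 and 22.1% of such genes. A member can pass this filter through the 1 arm where it is high, so nothing is read from these counts. After anti-CTLA-4 the called members were C1qb and C1qc, higher, and C1qa and Timd4, lower. After anti-PD-1 DANA they were Fcer1g and Cd68, both higher, and neither deposited call, Csf1r or Fcgr3, has such a mean. In the combination they were Lyz2 and Timd4, both lower. By library size, 25 of the 30 log2 fold changes kept direction and call. Lyz2 after anti-PD-1 DANA turned to 0.20 and Fcer1g after anti-CTLA-4 to 0.31. From the authors' deposited table so rescaled, Fcgr3 after anti-CTLA-4 lost its call (-10.27, adjusted p = 0.0568), and C1qb and C1qc there gained one (10.87 and 11.28, adjusted p = 0.0427 and 0.0206). With equal variances, intervals of differences between treatments left out 0 for 5, 7 and 4 of 10 genes, against 3, 1 and 2. The order is anti-CTLA-4 minus anti-PD-1 DANA, then each of them minus the combination. The share over all tested genes was not computed, so nothing is read from these counts. The causes were not tested. Of 16 means, 10 rested on 1 library at 80%, 11 at 60% and 9 at 95%, 8 of 10 with 0.01 chance solutions, 10 of 12 with 0.05 for every mean, and 14 of 22 means of any level; the last 2 settings were chosen after seeing the data.

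No paired analysis was possible because the tables hold no value per library and recovered libraries carry no replicate number. For the same reason leaving out each library, edgeR and DESeq2 were not run. Depth limits what can be said of arms at 0 to 3 reads.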
